A study of Mus musculus with 2 samples.

Results

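The 8 genes described here are those by which dendritic cell subsets are usually told apart: Xcr1, Clec9a, Batf3 and Irf8 for the cDC1 lineage, Irf4 and Cd209a for the cDC2 lineage, Siglech for plasmacytoid cells and Zbtb46 for conventional dendritic cells as a class. They were chosen by symbol, and all 8 were found once each among 33696 mouse genes. RNA was counted as unique molecular identifiers (UMIs) in CD45+ leukocytes sorted from MC38 tumours, which come from a mouse colon carcinoma line. The tumours grew under the skin of mice carrying human Fc gamma receptors, after implantation of 2000000 cells. Mice were left Untreated (the labels also call this control PBS) or received human IgG1 antibodies against mouse GITR, a costimulatory receptor of T cells. Of these antibodies, N297A is an Fc-null agonist. GA-aFuc is an agonist whose Fc is enhanced, while GITR/Syn GA-aFuc has the enhanced Fc and no agonist activity. Each was given at 100 µg per mouse in 2 injections 3 days apart, with cells taken 4 days post treatment. What Syn stands for, the ages of the mice and the promoters driving the human receptors are not given in the sources used here. The labels describe 3 mice per treatment. The library held 6 mice, told apart by hashtag: 2 were Untreated, 2 had N297A, and a single mouse stood for each of the Fc-enhanced antibodies. Each gave 1379 to 1519 cells and 16479710 to 19339165 mouse UMIs.

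Dendritic cells take up antigen in the tumour and carry it to lymph nodes, where they prime T cells. Conventional cells of the cDC1 type depend on the transcription factors IRF8 and BATF3 and specialise in cross-presentation to CD8 T cells. The cDC2 type depends more on IRF4 and mainly primes CD4 T cells. Plasmacytoid cells (pDC) make type I interferon. The label mregDC is used in this field for mature conventional dendritic cells rich in CCR7, the receptor that guides them to lymph nodes.

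Of the 8716 cells used, 325 carried a deposited dendritic cell name: 47 cDC1, 200 cDC2, 57 mregDC and 21 pDC. The largest other groups were 4104 macrophages, 2486 monocytes, 907 CD8 T cells and 723 NK cells. The names were checked with markers other than the 8 genes. Among these markers, 7 of 8 cDC1 markers, 6 of 6 mregDC markers and 6 of 7 pDC markers were highest in the type they mark. The cDC2 and monocyte names were less well borne out. Of 6 monocyte markers, 3 were highest in monocytes, while Ly6c2 and Plac8 were highest in pDC and Ccr2 in Tregs. Of 5 cDC2 markers, Mgl2 was highest in cDC2, while Clec10a and Cd7 were highest in pDC, Sirpa in macrophages and Ccl17 in mregDC. Levels below are CPM, the UMIs of a gene per 1000000 mouse UMIs, summed over the cells of a type in each mouse, and they come from a 3' assay in which 1 UMI stands for 1 RNA molecule irrespective of gene length. The deposited types were made from expression in the same cells, so differences between types are given as descriptions and were not tested. RNA free in solution was read from 163454 barcodes with 10 to 100 mouse UMIs. Its level was 2.10 CPM for Xcr1, 7.12 for Clec9a, 40.2 for Batf3, 236 for Irf8, 4.61 for Irf4, 2.10 for Cd209a, 2.51 for Siglech and 2.93 for Zbtb46. These levels rest on 5, 17, 96, 562, 11, 5, 6 and 7 UMIs in the same order, and their counting error is not given. They state each gene's part of free RNA, not how much free RNA a cell holds. A level near or below them is therefore not shown to be background.

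**Figure D1:**
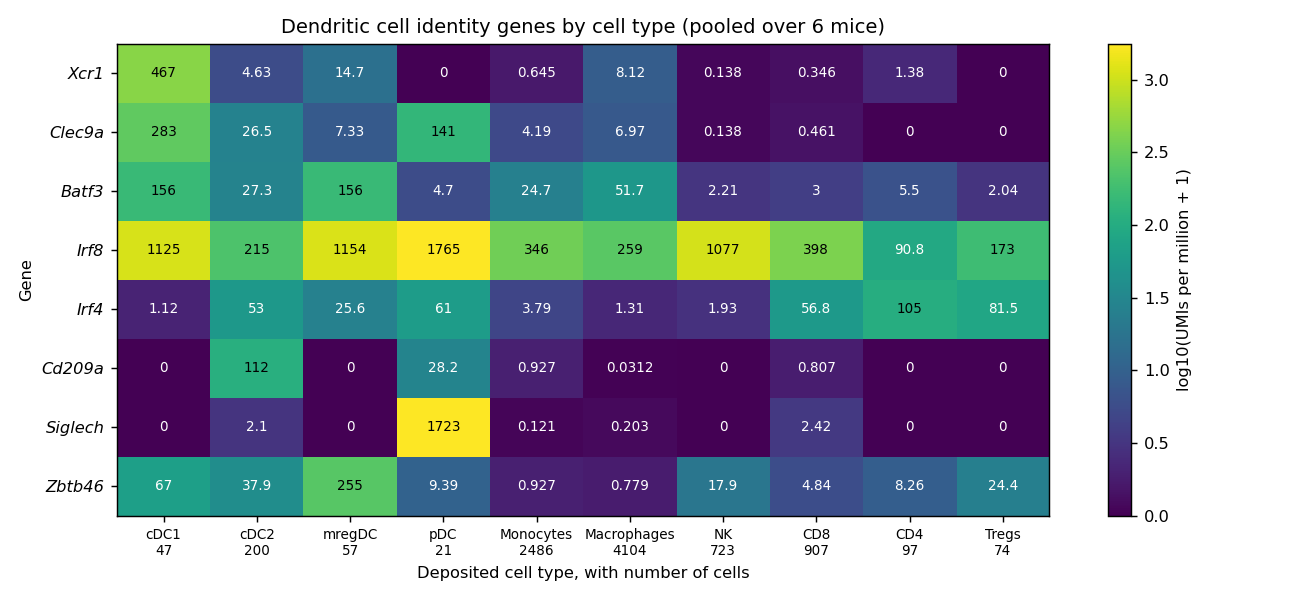
Pooled level of each gene (rows) in each deposited cell type (columns, with the number of cells), printed in CPM and coloured by log10 of the level plus 1. Siglech and Xcr1 are concentrated in 1 dendritic cell type each, Irf8 is high in 4 types, and the highest level of Irf4 is in CD4 T cells at 105 CPM.

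The start-site regions of 4 of the 8 genes are printed: Xcr1 and Clec9a, which were both highest in cDC1, Siglech, highest in pDC, and Zbtb46, highest in mregDC. They are RefSeq promoters of build GRCm38.p6, an older build than the GRCm39 on which the counts were made, and each line holds the 250 bases upstream of the start site, 5′ to 3′ on the gene's strand. Capitals mark matches on either strand to 4 motifs: TGANTCA (the AP-1 element bound by BATF and JUN factors), the core of the interferon-stimulated response element (ISRE), the composite element of ETS and IRF factors (EICE), and CANNTG (the E-box, bound by E proteins such as TCF4).
Xcr1, chr9:123862030-123862279, minus strand: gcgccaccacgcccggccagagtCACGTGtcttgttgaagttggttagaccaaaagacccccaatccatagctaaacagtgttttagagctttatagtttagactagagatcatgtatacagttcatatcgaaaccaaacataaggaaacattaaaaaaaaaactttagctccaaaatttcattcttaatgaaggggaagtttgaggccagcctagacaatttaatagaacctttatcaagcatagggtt
Clec9a, chr6:129408612-129408861, plus strand: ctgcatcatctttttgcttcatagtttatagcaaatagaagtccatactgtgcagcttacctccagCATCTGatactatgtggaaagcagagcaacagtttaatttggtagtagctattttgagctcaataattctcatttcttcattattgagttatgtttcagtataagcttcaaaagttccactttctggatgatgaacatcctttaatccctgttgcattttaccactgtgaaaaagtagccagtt
Siglech, chr7:55767934-55768183, plus strand: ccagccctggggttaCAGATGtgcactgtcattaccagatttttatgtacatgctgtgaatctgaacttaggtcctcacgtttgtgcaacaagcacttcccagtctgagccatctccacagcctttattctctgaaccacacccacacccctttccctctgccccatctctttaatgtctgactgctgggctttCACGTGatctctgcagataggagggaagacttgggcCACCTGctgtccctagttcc
Zbtb46, chr2:181424389-181424638, minus strand: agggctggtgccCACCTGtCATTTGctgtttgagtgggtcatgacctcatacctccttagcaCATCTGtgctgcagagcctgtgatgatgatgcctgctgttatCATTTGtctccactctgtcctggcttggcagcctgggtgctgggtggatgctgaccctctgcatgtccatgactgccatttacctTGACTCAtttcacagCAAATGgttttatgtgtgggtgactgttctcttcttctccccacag
Siglech had 3 E-box matches and Zbtb46 had 5, with 1 AP-1 match in Zbtb46, while Xcr1 and Clec9a had 1 E-box match each. Over all 9 start sites of the 8 genes, 7 held CANNTG, 1 held TGANTCA and 0 held the ISRE core or the EICE. Among 32851 promoter windows of the same length, 66.2% held CANNTG, 6.75% TGANTCA, 2.98% the ISRE core and 2.30% the EICE. The matches are descriptions of the letters in these windows and say nothing of binding in these cells.

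Xcr1 encodes the receptor for the chemokine XCL1, which NK cells and CD8 T cells release. In cDC1 its level was 478 and 515 CPM in Untreated replicates 1 and 2, 501 and 517 in N297A replicates 1 and 2, 504 in the GA-aFuc mouse and 297.2 in the GITR/Syn GA-aFuc mouse, each from 6 to 10 cells. The mean was 469 ± 85.2 (SD, n = 6 mice), with 5 mice close together and the GITR/Syn GA-aFuc mouse below them. No other type reached this range in any mouse. The next in order were mregDC at 13.02 ± 14.9 CPM, macrophages at 8.12 ± 3.16 and cDC2 at 4.00 ± 4.48, whose mice overlapped. After thinning every cell to 2000 UMIs, 63.8% of cDC1 had an Xcr1 UMI (exact 95% binomial interval 48.5% to 77.3%). The share was 1.74% in macrophages and 0.138% in NK cells, with 0 of 907 CD8 T cells (exact upper bound 0.406%). Median depths before thinning were 18338 UMIs in cDC1, 15232 in macrophages, 7880 in NK cells and 8158 in CD8 T cells. Without thinning, 91.5% of cDC1 and 7.41% of macrophages had an Xcr1 UMI. These intervals, and the Poisson intervals below, cover counting error only.

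Clec9a encodes the receptor with which cDC1 sense dead cells. It was also highest in cDC1, at 290 ± 42.7 CPM (n = 6 mice, 252 to 369). Plasmacytoid cells came next: 30 UMIs in 14 of 21 cells gave a pooled 141 CPM (95% Poisson interval 95.04 to 201), pooled because mice had 1 to 7 such cells. In cDC2 the level was 25.7 ± 8.03 CPM, above the mregDC in pooled level although the mice overlapped. Of 47 cDC1, 41 carried UMIs of both Xcr1 and Clec9a, 2 of Xcr1 alone, 3 of Clec9a alone and 1 of neither. None of the 14 pDC with a Clec9a UMI had an Xcr1 UMI.

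Batf3, the partner factor of IRF8 in cDC1 development, did not single out cDC1. Its level was 157 ± 52.6 CPM in cDC1 and 164 ± 81.2 in mregDC, and the ranges of 77.3 to 231 and 66.4 to 274 overlapped. Macrophages followed at 51.6 ± 8.20 CPM, with no overlap with either of them, and cDC2 at 28.7 ± 9.89 and monocytes at 25.0 ± 4.14 overlapped each other. Macrophages lay above the free RNA level of 40.2 CPM in all 6 mice (42.6 to 63.6), whereas monocytes lay below it in all 6 (19.2 to 29.1). That free RNA level came from 96 UMIs, and the lowest macrophage mouse was close to it. NK cells, at 2.24 ± 1.83 CPM, and CD8 T cells, at 3.10 ± 2.72, were far lower and overlapped each other.

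Irf8 had the broadest pattern. Its pooled level was 1765 CPM in pDC (95% Poisson interval 1592 to 1953), and means over 6 mice were 1195 ± 396 in mregDC, 1138 ± 146 in cDC1 and 1083 ± 42.5 in NK cells, with overlapping mice in the last 3. CD8 T cells followed at 405 ± 48.5, monocytes at 347 ± 38.1, macrophages at 258 ± 24.7 and cDC2 at 218 ± 42.5. The cDC2, which rely less on this factor, were the dendritic cells with the least of it: the highest cDC2 mouse had 267 CPM and the lowest cDC1 mouse 963. In macrophages and cDC2 the level was near that of free RNA, 236 CPM. At 2000 UMIs per cell, 91.5% of cDC1 and 86.7% of NK cells had an Irf8 UMI, against 29.6% of cDC2.

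Irf4, which acts in cDC2 and in activated T cells, ran the other way between cDC1 and cDC2. In cDC2 it was 20.5, 64.02, 29.8, 42.2, 83.1 and 81.5 CPM in Untreated 1 and 2, N297A 1 and 2, the GA-aFuc mouse and the GITR/Syn GA-aFuc mouse. In cDC1 it was 0 in 5 mice and 8.59 CPM, from 1 UMI, in Untreated replicate 2, so the cDC1 and cDC2 mice did not overlap. T cells were at least as high: 108 ± 44.8 CPM in CD4 T cells, 59.0 ± 12.5 in CD8 T cells and a pooled 81.5 (58.2 to 111) in Tregs. Nor did Irf4 single out cDC2 among dendritic cells. In pDC, 13 UMIs in 8 of 21 cells gave a pooled 61.04 CPM (32.5 to 104.4), against a pooled 52.99 (44.14 to 63.09) in cDC2. The pooled level in mregDC was 25.65 CPM (14.02 to 43.04), and the mregDC and cDC2 mice overlapped. Of all Irf4 UMIs in the library, 51.6% came from CD8 T cells and 13.2% from cDC2.

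Cd209a encodes a C-type lectin related to DC-SIGN and was the sharpest cDC2 gene, with 266 of 304 UMIs (87.5%) in cDC2. It was carried by few cells: 42 of 200 cDC2 had a UMI, against 0 UMIs in 47 cDC1, 57 mregDC and 723 NK cells. Plasmacytoid cells came next after cDC2, with 6 UMIs in 4 of 21 cells, a pooled 28.2 CPM (95% Poisson interval 10.3 to 61.3). Within cDC2 its pooled level differed between the deposited clusters, which were made from expression in the same cells. The level within cluster 36 varied between mice, down to 37.5 CPM in the GA-aFuc mouse, where 4 of 16 cells had a UMI. Cluster 36 (101 cells) had 246 CPM (95% Poisson interval 216 to 280), cluster 46 (87 cells) 20.2 (12.8 to 30.4), and cluster 64 (12 cells) had 1 UMI. Irf8 was also higher in cluster 36 (285 CPM, 253 to 321) than in cluster 46 (168, 145 to 194), while Irf4 was 44.8 (32.6 to 60.2) and 66.0 (51.9 to 82.8). Of the 42 cells with a Cd209a UMI, 13 also had an Irf4 UMI.

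Siglech encodes a sialic acid-binding lectin of pDC. It gave 367 UMIs in the 21 pDC, all of which carried it, or 1723 CPM (95% Poisson interval 1551 to 1909), with per-mouse values of 1260 to 2657. At 2000 UMIs per cell, 95.2% of pDC had a Siglech UMI, against 0.110% in the CD8 T cells and none among 723 NK cells. The second highest type, CD8 T cells, owed its 2.42 CPM to 1 cell. That cell, from the GA-aFuc mouse, held 21 Siglech UMIs with 135 UMIs of 7 of 7 pDC markers and 49 UMIs of T cell markers, at 18315 UMIs in total. A macrophage of N297A replicate 2 held 11 of the 13 Siglech UMIs in its type, together with 58 pDC marker UMIs and 196 UMIs of the C1q genes. Both cells had over 95% of their hashtag UMIs in 1 hashtag, and neither was removed. Whether they are doublets was not tested.

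Zbtb46, a factor found in conventional dendritic cells and their precursors, was highest in mregDC at 243 ± 86.9 CPM (178 to 404). It was 70.3 ± 28.3 in cDC1 and 35.8 ± 16.3 in cDC2, which overlapped. In pDC there were 2 UMIs, both in 1 cell, a pooled 9.39 CPM (1.14 to 33.9). Macrophages (0.777 ± 0.175) and monocytes (0.936 ± 0.516) did not reach the 2.93 CPM of free RNA in any mouse. NK cells had more, 18.6 ± 9.14 CPM, and NK cluster 26 (169 cells) stood at 52.3 (37.8 to 70.4), from 43 UMIs in 24 cells. In that cluster the GA-aFuc mouse had 7.66 CPM and the GITR/Syn GA-aFuc mouse 15.9, each from 1 UMI, and the other 4 mice had 46.3 to 89.0, a difference that was not tested.

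**Figure D2:**
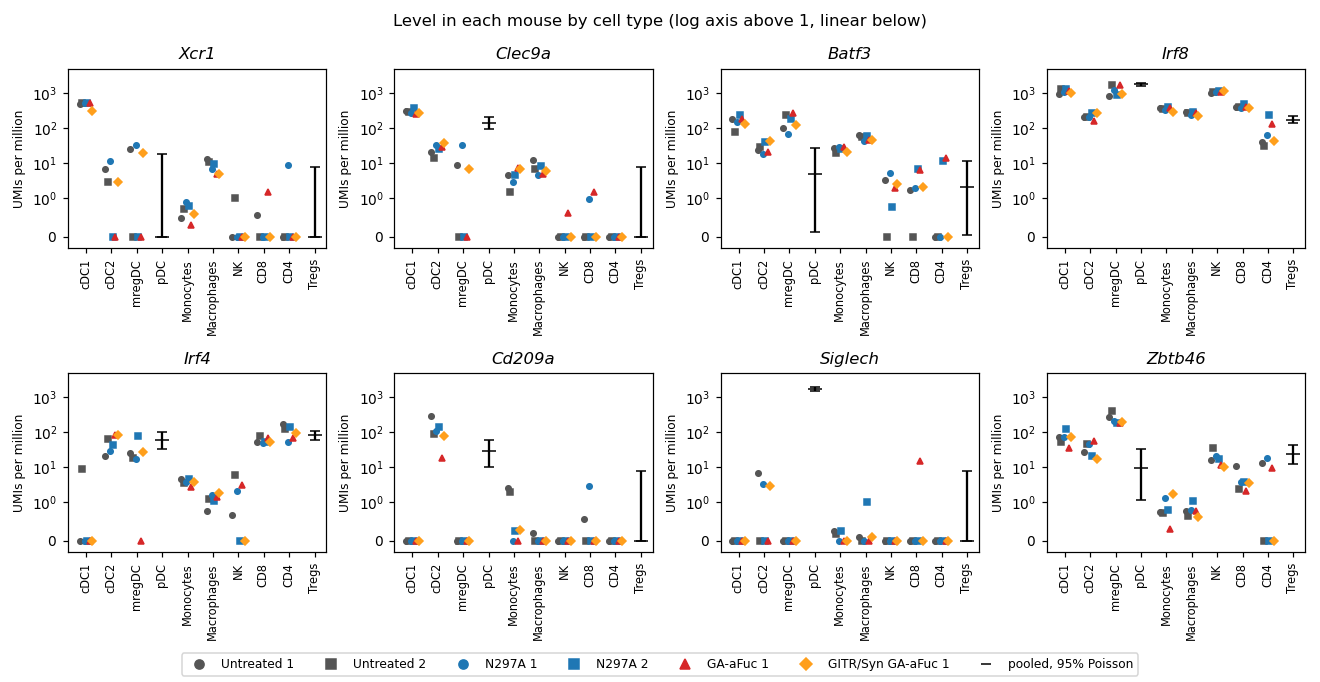
Level of each gene in each mouse (points coloured by treatment, CPM on an axis that is logarithmic above 1 and linear below) in the 10 deposited cell types; types with under 5 cells in a mouse are shown as a pooled level with its 95% Poisson interval. For Xcr1 the 6 cDC1 points, 297.2 to 517, stand above all others, and for Batf3 the cDC1 and mregDC points overlap.

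Macrophages were 47.1% of the cells and held much of the total of some of these genes. They held 53.2% of all Xcr1 UMIs, against 42.7% in cDC1, and 49.3% of Clec9a, 77.7% of Batf3 and 42.5% of Irf8 UMIs. These shares also reflect UMIs per cell, so pooled levels are given beside them. The macrophage level was below that of all cells for Xcr1 (8.12 against 8.89 CPM), Clec9a (6.97 against 8.23) and Irf8 (259.1 against 355.5). For Batf3 it was above (51.7 against 38.7). The macrophage level of Clec9a, 6.99 ± 2.95 CPM (n = 6 mice), was no higher than the 7.12 of free RNA, and how much of its share is background was not tested. For Siglech and Cd209a the macrophage level was 0.203 and 0.0312 CPM, below free RNA. In clusters of at least 20 cells (23 of macrophages, 15 of monocytes), Xcr1 ranged from 0 UMIs in 3 macrophage clusters to 21.2 CPM in cluster 15 (181 cells, 95% Poisson interval 16.1 to 27.4). Clusters 2 and 6 followed at 17.4 and 16.9. In cluster 12, 231 macrophages had 0 Xcr1 UMIs, which allows up to 0.809 CPM by the floor of 3 counts, below the free RNA level of 2.10. The lower bound of cluster 15, 16.1 CPM, lay above that free RNA level. No monocyte cluster exceeded 1.80 CPM.

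Macrophages with Xcr1 were compared with cDC1 by their other genes, as a description. The deposited names were made from expression, so the level of macrophage and dendritic cell genes in cells named macrophages is not independent of the name. A total of 304 macrophages had an Xcr1 UMI, and 53 had 3 or more, against 39 cDC1 with 3 or more. The 53 cells came from all 6 mice (4 to 15 each). Their summed level of C1qa, a complement gene of macrophages, was 6016 CPM, against 5544 in macrophages without an Xcr1 UMI and 108 in cDC1. The macrophage markers C1qb, C1qc and Adgre1 were at 5274, 3816 and 395 CPM, against 5208, 3417 and 357 in macrophages without an Xcr1 UMI. Apoe, also a macrophage marker, went the other way: 6272 CPM in the 53 cells, 8859 in macrophages without an Xcr1 UMI and 203 in cDC1. Flt3, the growth factor receptor of dendritic cells, and Zbtb46 had 0 UMIs in these 53 cells and stood at 147 and 67.0 CPM in cDC1. Itgae and Snx22, further cDC1 markers, were at 2.02 and 1.01 CPM, against 244 and 40.2 in cDC1. The markers Wdfy4, Naaa and Tlr3 were at 89.7, 84.6 and 33.25 CPM in the 53 cells. They were at 81.7, 63.2 and 29.2 in macrophages without Xcr1 and at 916, 670 and 152 in cDC1. Clnk had 0 UMIs in the 53 cells and 31.3 CPM in cDC1. Cadm1, an adhesion molecule listed among cDC1 markers, did not separate the groups: 506 CPM in the 53 cells, 325 in macrophages without Xcr1 and 429 in cDC1. Rab7b, also listed there, was at 228, 200 and 303 CPM in the same order. Clec9a, at 9.07 CPM in the 53 cells, was close to the 6.56 in macrophages without Xcr1, and far from the 283 of cDC1. Batf3 was at 75.6 CPM in the 53 cells, 50.4 in macrophages without Xcr1 and 156 in cDC1. Irf8 was at 237, 259 and 1125 CPM in the same order.

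Irf8 and Batf3 peaked in different macrophage clusters. Irf8 was highest in macrophage cluster 6, at 520 CPM (497 to 545), with 412 to 633 in the 6 mice, and lowest in cluster 15, at 189 (174 to 206), with 165 to 210. The 2 ranges did not overlap. Batf3 was highest in that same cluster 15, at 90.9 CPM (79.9 to 103), and lowest in cluster 9, at 14.0 (9.82 to 19.4), while cluster 6 had 67.1 (58.9 to 76.2), so the pair did not run opposite to each other throughout. Among monocytes, clusters 22 and 27 had 621 and 560 CPM of Irf8, against 229 in cluster 8. Over the 38 macrophage and monocyte clusters, the genes most like Irf8 by Pearson r of log2(CPM + 10) were Batf2 (0.828), Gbp5 (0.824) and Icam1 (0.8), all of which interferon gamma is known to induce. Gbp5 was 210 CPM in macrophage cluster 6 and 29.6 in cluster 15. The restriction to these clusters was chosen after the values were seen. Batf3 was most like Siglece (0.894), Asb2 (0.887) and Akr1b3 (0.867), and Xcr1 most like Negr1 (0.839), Klra17 (0.804) and Sox5 (0.788), all but Akr1b3 with their highest level in cluster 15.

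**Figure D3:**
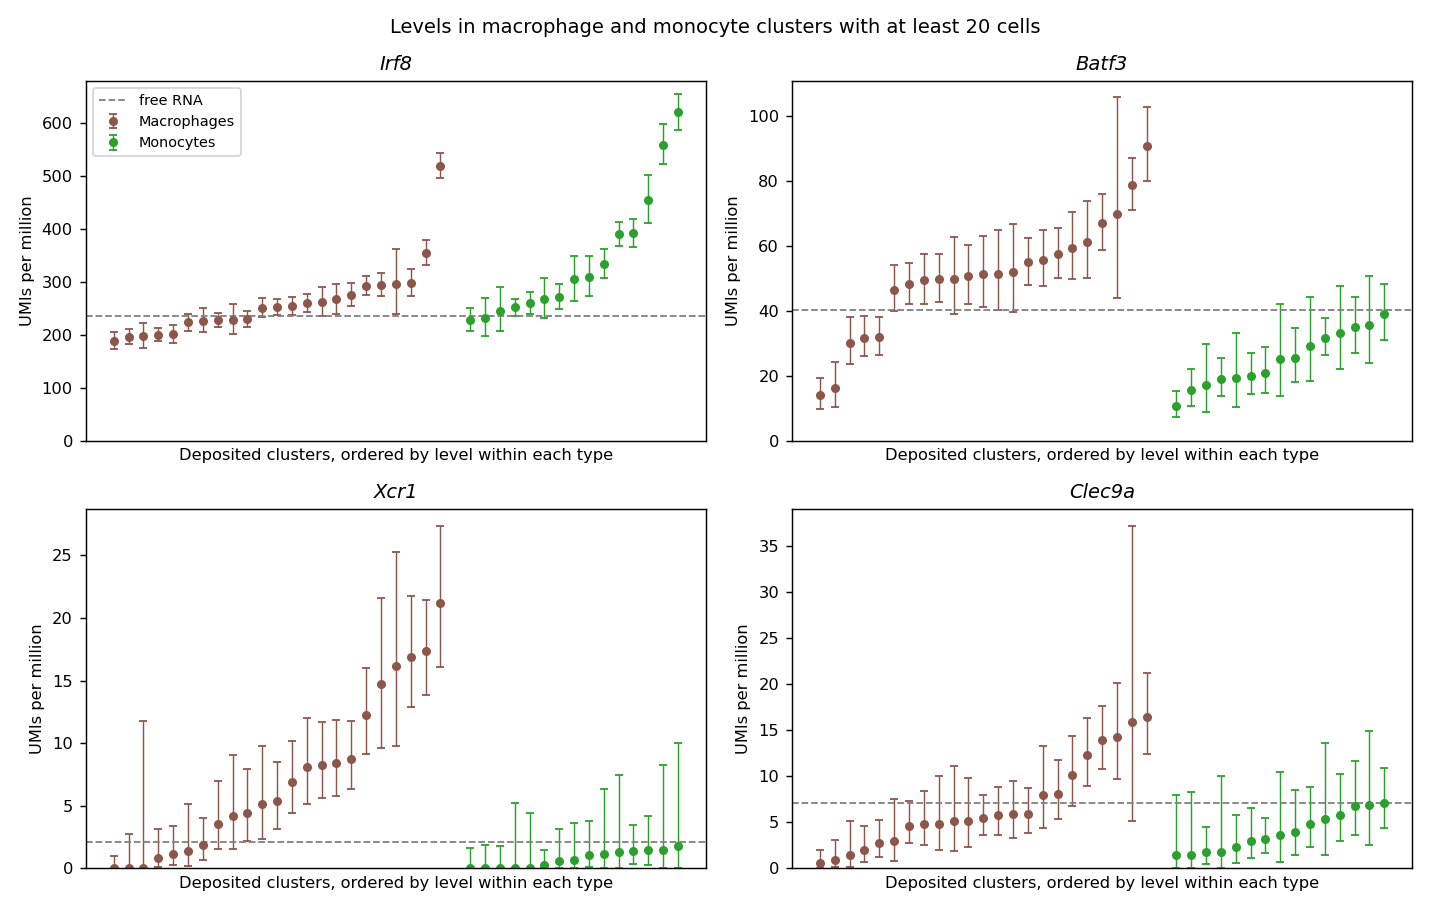
Pooled level (CPM, bars are 95% Poisson intervals) of Irf8, Batf3, Xcr1 and Clec9a in each macrophage (brown) and monocyte (green) cluster, ordered by level within each type, with the level of free RNA as a dashed line. Xcr1 reaches 21.2 in macrophages and stays at or below 1.80 in monocytes; Irf8 reaches 520 and 621.

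Over all 56 clusters of at least 20 cells, likeness was ranked among 6804 genes. Septin3 (r = 0.832), Gcsam (0.831) and Ccser1 (0.784) were most like Xcr1, and Rasgrp3 (0.889), Ffar4 (0.883) and Mycl (0.877) most like Clec9a, all highest in cDC1. For Batf3 they were Shtn1 (0.897), Fnbp1l (0.880) and Hfe (0.870), and for Zbtb46 Tuba1a (0.830), Kit (0.819) and Sema7a (0.814). Siglech was matched by Klk1 (0.996), Gm21762 (0.996) and Iglc3 (0.995), a likeness that rests on the lone pDC cluster. The values for Irf8 were lower, with Lrrk1 (0.683), Hhex (0.658) and Rasal2 (0.632). Irf4 ran with Sntb1 (0.887), Fam169b (0.874) and Plcg1 (0.865), highest in CD4 T cells and Tregs, and Cd209a with Cd209d (0.835), Kmo (0.782) and Clec10a (0.749), which were themselves highest in pDC. Clusters share 1 library and differ in depth, so these coefficients are descriptions.

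The treatments were compared over mice, since cells of a mouse are not replicates, by summing UMIs per mouse in 5 cell groups: all annotated cells, all dendritic cells together, cDC2, macrophages and monocytes. The 3 comparisons share the 2 Untreated mice, and the spread of groups of 1 mouse is assumed to be like that of the others. All p-values measure only the spread between these mice. Of the 8 genes, 8 passed the expression filter in all cells and in dendritic cells, 6 in cDC2, 6 in macrophages and 4 in monocytes, or 32 tests per comparison. By edgeR's quasi-likelihood test with Benjamini-Hochberg adjustment over all genes, 0 of these 32 passed an adjusted p of 0.05 for N297A, where 0.048% of all gene tests did, 0 for GA-aFuc (0.0628%) and 0 for GITR/Syn GA-aFuc (0.0646%). In the separate fits for all cells, all dendritic cells, cDC2, macrophages and monocytes, edgeR called 0.0%, 0.302%, 0.0169%, 0.0% and 0.00876% of all genes for N297A. For GA-aFuc the shares were 0.013%, 0.0503%, 0.0676%, 0.0148% and 0.193%, and for GITR/Syn GA-aFuc 0.00652%, 0.0%, 0.135%, 0.0148% and 0.21%. At an unadjusted p under 0.05 the counts were 2, 7 and 4 of 32, where 3.5%, 4.72% and 4.77% of all gene tests lay. The tests are not independent, since all cells include the dendritic cells and those include cDC2. The 7 for GA-aFuc hold Cd209a in all cells, dendritic cells and cDC2, and Zbtb46 in all cells and dendritic cells. No excess over the share of all genes is read from these counts. DESeq2 also called 0, with 0, 4 and 1 at the unadjusted level, and limma-voom called 0, with 2, 7 and 4. On simulated counts, a 4-fold change was found in 78.5% of changed genes for N297A and 59.5% for GA-aFuc in dendritic cells, and a 2-fold change in 23.5% and 9%, so smaller changes could go uncalled. The changed genes were drawn at random from all genes that passed the filter. These shares therefore do not give the power for the 8 genes, some of which had few UMIs, and large changes of those could go uncalled too.

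**Figure D4:**
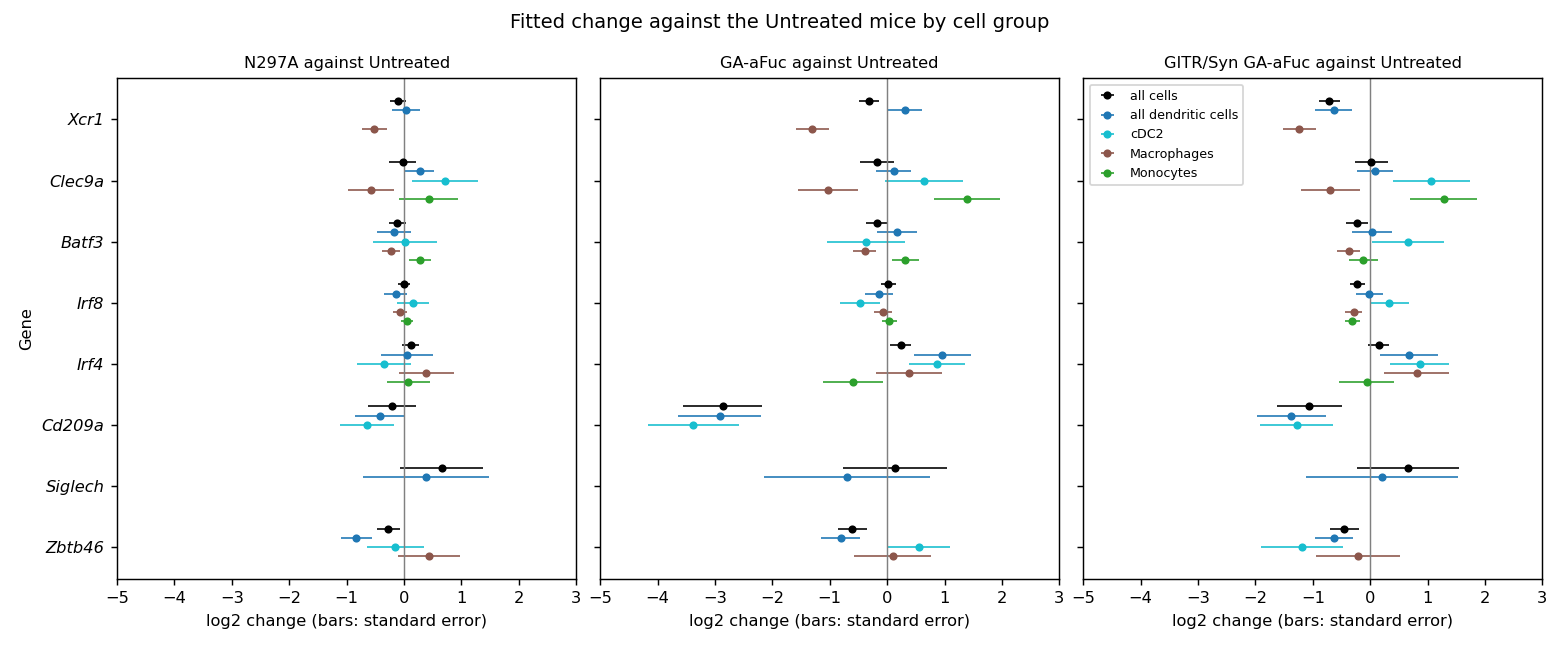
Fitted log2 change of each gene against the Untreated mice in the 3 treatments, with standard errors as bars and the cell group as colour; genes that did not pass the expression filter of a group are not drawn. The values farthest from 0 are those of Cd209a in the GA-aFuc mouse, at -2.87 to -3.38, and none passes the adjusted threshold.

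The value farthest from 0 was that of Cd209a. In cDC2 it was 294 and 89.1 CPM in Untreated replicates 1 and 2, 109 and 139 in N297A replicates 1 and 2, 18.5 in the GA-aFuc mouse and 78.7 in the GITR/Syn GA-aFuc mouse. The GA-aFuc mouse was lowest and the 2 Untreated mice lay far apart. The fitted log2 change for GA-aFuc was -3.38 (SE 0.79, adjusted p = 0.587 by edgeR with Benjamini-Hochberg adjustment). These levels rest on few cells: 9, 4, 10, 7, 6 and 6 cDC2 with a Cd209a UMI in the same order of mice, with 86, 32, 66, 46, 8 and 28 UMIs, of which 1 cell of Untreated replicate 1 held 29. The share of cDC2 in cluster 36 ran from 33.3% in Untreated replicate 2 to 68.8% in N297A replicate 2, and was 47.1% in the GA-aFuc mouse. Within cluster 36, Cd209a was 576 and 344 CPM in the Untreated mice, 231 and 234 with N297A, 37.5 with GA-aFuc and 158 with GITR/Syn GA-aFuc, so that both Untreated mice were above the other 4. Without the UMIs of each mouse's highest cell, these values were 350 and 215, 177 and 168, 18.8 and 94.8. The fit called the GA-aFuc change without Untreated replicate 2 (log2 change -4.02, adjusted p = 0.000769 by edgeR) but not without Untreated replicate 1 (log2 change -2.31, adjusted p = 0.551), and adjusted p by edgeR, DESeq2 or limma-voom ranged from 9.62e-07 to 0.999 over 12 other settings, of which 3 made a call. In monocytes, where Cd209a did not pass the filter, the Untreated mice had 10 and 11 UMIs, and the others 0, 1, 0 and 1. Of those, 7 and 8 UMIs lay in 1 cell each, and without these cells the levels were 0.736 and 0.538 CPM.

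Xcr1 in macrophages was 12.6 and 10.4 CPM in the Untreated mice, 6.82 and 9.20 with N297A, 4.77 with GA-aFuc and 4.92 with GITR/Syn GA-aFuc, from 131, 116, 68, 101, 56 and 49 UMIs. The Untreated mice were the highest, the 2 Fc-enhanced mice the lowest, and no groups overlapped. The log2 changes were -1.30 (SE 0.28) for GA-aFuc, -1.23 (SE 0.29) for GITR/Syn GA-aFuc and -0.52 (SE 0.22) for N297A, with adjusted p of 0.845, 0.754 and 0.997 by edgeR with Benjamini-Hochberg adjustment. Both Fc-enhanced changes were called without N297A replicate 1 (adjusted p = 0.0415 and 0.0455) and without N297A replicate 2 (0.0306 and 0.0387). Weighting each mouse's clusters by their pooled share of macrophages, a step chosen after seeing the data, gave 12.3 and 9.70, 7.33 and 8.81, 4.74 and 4.79. In all dendritic cells Xcr1 was 119 and 98.0 CPM, 122 and 99.0, 137 and 71.4 in the same order, with no such order of groups. The difference between dendritic cells and macrophages in the GA-aFuc change was 1.64 (SE 0.44, adjusted p = 0.0711 by edgeR, where 0.214% of genes were called), and 0 of the 8 genes passed in this or the other 2 comparisons of that pair (0.214% of genes for N297A and 0.0222% for GITR/Syn GA-aFuc). Between macrophages and monocytes 0 of 7 genes passed, where edgeR called 0.00738%, 0.0664% and 0.00738% of all genes for N297A, GA-aFuc and the non-agonist. Nearest to the threshold there was Clec9a with GA-aFuc, at -2.38 (SE 0.51, adjusted p = 0.106 by edgeR).

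Zbtb46 in all dendritic cells was 91.3 and 111 CPM in the Untreated mice, 61.3 and 51.3 with N297A, 58.8 with GA-aFuc and 67.1 with GITR/Syn GA-aFuc. The log2 change for N297A was -0.84 (SE 0.27, adjusted p = 0.372 by edgeR with Benjamini-Hochberg adjustment). The number of mregDC, its highest type, was 12 and 13 in the Untreated mice, 7 and 6 with N297A, 6 with GA-aFuc and 13 with GITR/Syn GA-aFuc. In such sums, fewer cells of a type and less RNA per cell cannot be told apart. Within mregDC, Zbtb46 was 278 and 404 CPM in the Untreated mice and 178 to 216 in the other 4. In cDC2 the Untreated mice, at 27.3 and 47.3, lay within the 16.9 to 57.7 of the other 4, and in cDC1 their 71.7 and 51.5 lay within 35.97 to 119.9. Clec9a in monocytes was 4.42 and 1.43 CPM in the Untreated mice, 2.91 and 4.46 with N297A, 7.32 with GA-aFuc and 6.66 with GITR/Syn GA-aFuc, close to or below the free RNA level of 7.12. Its log2 change for GA-aFuc was 1.39 (SE 0.57, adjusted p = 0.663 by edgeR), with 2.31 without Untreated replicate 1 and 0.72 without replicate 2 (adjusted p = 0.164 and 0.838).

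**Figure D5:**
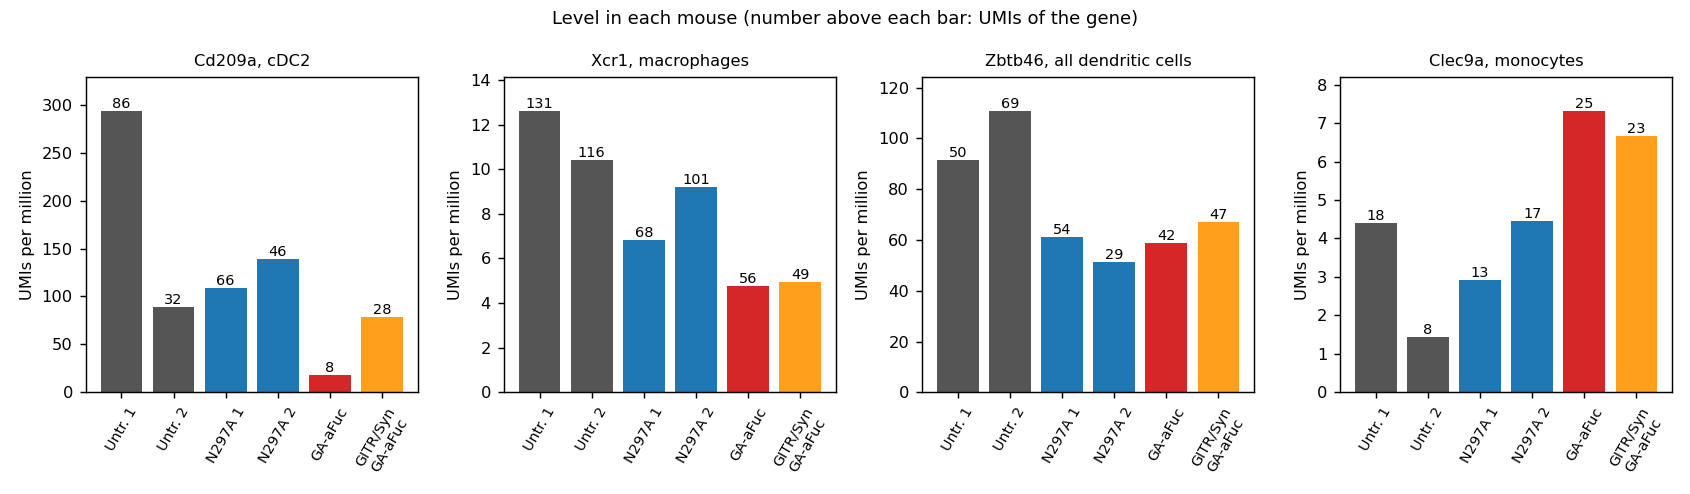
Level in each mouse (bars, CPM, with the number of UMIs above each bar) of Cd209a in cDC2, Xcr1 in macrophages, Zbtb46 in all dendritic cells and Clec9a in monocytes. The GA-aFuc mouse has the lowest Cd209a, from 8 UMIs, and both Untreated mice have the highest Xcr1 and Zbtb46.

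For Irf8, Irf4 and Siglech the values by mouse were as follows, again with no call. In all dendritic cells Irf8 was 530 and 784 CPM in the Untreated mice, 534 and 661 with N297A, 607 with GA-aFuc and 668 with GITR/Syn GA-aFuc, so that every treated mouse lay between the 2 Untreated ones. In monocytes it was 369 and 340 CPM, 330 and 392, 366 and 283 in the same order, with a log2 change of -0.31 (SE 0.13, adjusted p = 0.731 by edgeR) for GITR/Syn GA-aFuc. Irf4 in cDC2 was highest in the 2 Fc-enhanced mice, as given above, at an adjusted p of 0.999 and 0.999 by edgeR with Benjamini-Hochberg adjustment. Siglech in dendritic cells was highest in the mouse with most pDC, whose numbers were 1, 4, 2, 7, 3 and 4. It was 53.0 and 124 CPM in the Untreated mice, 46.5 and 196 with N297A, 56.0 with GA-aFuc and 106 with GITR/Syn GA-aFuc.

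The other genes of these lineages, in 6 lists, were tested in the same fits. Of 10 cDC1, 8 cDC2, 11 pDC, 9 shared antigen-presenting and 13 transcription factor genes, 0 were called in any of the 15 fits and comparisons by edgeR, with 14, 10, 10, 7 and 15 tests at an unadjusted p under 0.05 of 129, 120, 123, 129 and 186. The mature dendritic cell list (9 genes, 81 tests) had 1 call upwards and 2 downwards, with 21 tests at an unadjusted p under 0.05 by edgeR. Of all gene tests, 3.5% lay under that level for N297A, 4.72% for GA-aFuc and 4.77% for GITR/Syn GA-aFuc. The fits share cells here too, so the tests of a list are not independent. In all dendritic cells with N297A, Cacnb3 fell by 1.48 on the log2 scale (SE 0.30, adjusted p = 0.0213 by edgeR) and Ccr7 fell by 0.94 (SE 0.20, adjusted p = 0.0439). Both are mregDC genes. The number of mregDC was 12 and 13 in the Untreated mice and 7 and 6 with N297A. As a mean share of annotated cells this was 0.832% and 0.447% (exact permutation p = 0.333, the smallest that 2 against 2 mice can give). Fewer mregDC and less RNA of these genes per cell cannot be told apart in such sums. Over all dendritic cells, Cacnb3 was 104.1 and 107.6 CPM in the Untreated mice and 31.79 and 45.98 with N297A. It was 30.79 with GA-aFuc and 75.63 with GITR/Syn GA-aFuc. Ccr7 was 425.5 and 443.2, 231.6 and 222.8, 253.3 and 535.1 CPM in the same order. The GA-aFuc mouse had 6 mregDC and the GITR/Syn GA-aFuc mouse 13. Within mregDC, 6 mregDC markers, both genes among them, summed to 4688 to 6780 CPM over the mice. The 2 genes were not read by mouse within mregDC. In the fit of all dendritic cells for N297A 0.302% of genes were called, and in that of cDC2 for GA-aFuc 0.0676%. In cDC2 of the GA-aFuc mouse, Ccl22, a chemokine that attracts T cells with CCR4, rose by 2.79 (SE 0.56, adjusted p = 0.0325 by edgeR): 23.9 and 8.35 CPM in the Untreated mice, 14.9 and 9.05 with N297A, 113 with GA-aFuc and 70.3 with GITR/Syn GA-aFuc. DESeq2 made none of these 3 calls (adjusted p = 1.00, 0.213 and 0.999), and each was lost without Untreated replicate 1 (0.128, 0.121 and 0.381) or replicate 2 (0.431, 0.411 and 0.299), by edgeR in the order Cacnb3, Ccr7 and Ccl22. The first 2 were also lost without N297A replicate 1 (0.153 and 0.139), Ccr7 and Ccl22 without N297A replicate 2 (0.153 and 0.332), and Ccr7 without the GITR/Syn GA-aFuc mouse (0.0556). By limma-voom Cacnb3 was called (0.0292), and Ccr7 and Ccl22 were not (0.0507 and 0.399). With only cells whose top hashtag held at least 90% of hashtag UMIs, Cacnb3 and Ccr7 had adjusted p of 0.814 and 0.964. The cDC2 share of annotated cells was 1.75% and 1.78% in the Untreated mice and 2.25% to 3.16% in the other 4. The exact permutation p was 0.333 for N297A and 0.867 for the 2 Fc-enhanced mice against the other 4, and over the 8 such comparisons of dendritic cell shares the lowest adjusted p was 0.888. The smallest p of this permutation test is 0.333 for 2 against 2 mice and 0.0667 for 2 against 4. No comparison of shares could therefore pass 0.05, and these p-values do not show that the shares were alike.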

How the data were processed

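Single-cell RNA was measured in 1 library of CD45+ tumour cells with 6 hashtags, each taken as 1 mouse. Per the submitters' processing notes and the file headers, the authors used Cell Ranger 9.0.0 with GRCh38 and GRCm39 joined in 1 reference. They deposited unnormalized UMI counts for 2965363 barcodes, with a table of treatment, cell type and cluster. The filters, demultiplexing and clustering behind that table are not stated there. Of 19210 entries of that table, 8767 matched barcodes with at least 1000 mouse UMIs. After removal of 33 cells with a top hashtag of a different treatment and 18 with repeated barcodes, 8716 remained. The top hashtag, with a median of 96.2% of hashtag UMIs, was taken as the mouse, and mice were numbered in hashtag order. No doublet caller was run.

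Mouse UMIs were summed per mouse and cell group and fitted with edgeR 4.0.16 (TMM, filterByExpr, robust quasi-likelihood test, treatment as the only term, Benjamini-Hochberg adjustment over all genes tested, threshold 0.05). Interaction fits had the mouse as block. DESeq2 1.42.0 and limma 3.58.1 (voom) on R 4.3.3 were alternatives, and the fits were tested on simulated data. Levels (CPM), thinning to 2000 UMIs, exact Poisson and Clopper-Pearson intervals at 95%, likeness over clusters (genes reaching 50 CPM in a cluster) and exact two-sided permutation tests used Python 3.11.15. Types with under 5 cells in a mouse were pooled. The 8 genes were always named, with the 3 genes most like each and up to 3 called genes of each list. The genes and lists were chosen with earlier results of these data known. Alternatives changed the normalization, test, filter, cells, hashtag purity and UMI minimum, or left out a mouse.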

Additional observations from a re-analysis of the deposited data

Results flagged for a closer look

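UMIs of the 8 genes also lay in barcodes without a deposited cell type, which no comparison above uses. There were 4198 such barcodes with at least 1000 mouse UMIs, with a median of 13775 UMIs. Their top hashtag held over 80% of hashtag UMIs in 59.8%, against 98.9% of the cells used. They held 408 Xcr1 UMIs (4.74 CPM, against 8.89 in the cells used) and 441 of Clec9a (5.13 against 8.23). For the transcription factors the numbers were 1787 UMIs of Batf3 (20.8 against 38.7 CPM), 18408 of Irf8 (214 against 356), 540 of Irf4 (6.28 against 8.66) and 515 of Zbtb46 (5.99 against 5.03). The lectins Cd209a and Siglech gave 239 UMIs (2.78 against 2.76 CPM) and 175 UMIs (2.04 against 3.71). Each value was above the limit that a count of 0 allows. At least 3 Xcr1 UMIs were found in 42 of these barcodes, of which 11 had a top hashtag over 80%, and at least 3 Siglech UMIs in 11, of which 4 did. Why they carry no cell type was not tested.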

How the results depend on the processing

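For N297A, 0 of the 8 genes' tests were called under every alternative. For GA-aFuc the count was 0, but 3 without the filter on low counts, 1 without the top 5% of cells by UMIs, and 0 to 2 without 1 mouse. For GITR/Syn GA-aFuc it was 0, but 1 without the filter and 0 to 1 without 1 mouse. Over dendritic cells, macrophages and monocytes, N297A called 25 genes of all genes, against 7 with DESeq2, 14 with limma-voom, 120 without the filter, 59 without the top 5% of cells, 0 with a top hashtag of at least 90% and 4 to 180 without 1 mouse. GA-aFuc called 28 (254 without the filter, 31 to 112 without 1 mouse) and GITR/Syn GA-aFuc 26 (219 and 29 to 148). The cause was not tested. Of 408 recomputed log2 changes of 6 of the 8 genes (all but Batf3 and Siglech) and the 3 called list genes, 361 kept their direction and side of the threshold and 18 changed sign, none of them called in either setting. The 11 that became called were of Cd209a and Xcr1, and the 18 that lost their call were of Cacnb3, Ccr7 and Ccl22. Among the changes that turned sign, that of Cd209a with N297A ran without 1 mouse from -0.67 to 0.46 in all cells, -1.0 to 0.54 in dendritic cells and -1.29 to 0.43 in cDC2. With N297A, Irf4 in cDC2 ran from -0.90 to 0.73, and Clec9a in monocytes from -0.24 to 1.34. For Irf8 in dendritic cells the ranges were -0.38 to 0.16 for N297A and for GA-aFuc, and -0.24 to 0.29 for GITR/Syn GA-aFuc, which was also 0.03 without the filter and with a top hashtag of at least 90%, and 0.00 with limma-voom and with at least 2000 UMIs per cell. In monocytes Irf8 ran from -0.08 to 0.18 (N297A) and -0.02 to 0.08 (GA-aFuc), and Clec9a in dendritic cells from -0.02 to 0.20 (GITR/Syn GA-aFuc). Under all 11 alternatives, 7 of the 8 genes were highest in a dendritic cell type. No paired analysis was possible because the labels give no replicate numbers that mice of different groups share. Groups of 1 or 2 mice, 47 cDC1 and 21 pDC limit what could be detected.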

Other observations

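Further levels belong to no comparison above. Among list genes not used to choose the 8, Flt3 was 242 CPM in mregDC, 174 in pDC, 147 in cDC1 and 59.3 in cDC2, against 0.359 in macrophages, and Tcf4, the E protein that specifies pDC, was 2878 in pDC. Of the 10 genes of the cDC1 list, 9 were highest in cDC1, the exception being Clnk, which was highest in NK cells at 267 CPM. Macrophages held 334 CPM of Cadm1. Pooled levels were compared and no test was run.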
